A study of Mus musculus with 12 samples.

Results

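The nuclear-encoded subunits of the mitochondrial respiratory chain were followed across 4 cell types sorted from mouse embryos at E7.25, during gastrulation. Genes were taken by symbol, namely the Ndufa, Ndufb, Ndufc, Ndufs and Ndufv genes of complex I, Sdha to Sdhd of complex II, the Uqcr genes of complex III and the Cox4 to Cox8 genes of complex IV. This gave 71 of the 38924 genes counted, with 40 in complex I, 4 in complex II, 8 in complex III and 19 in complex IV, and 2 pseudogene rows were left out. Subunits with other symbols, such as Ndufab1 of complex I and Cyc1 of complex III, fall outside the 71. All animals belonged to the Foxa2Cre:Rosa26-YFP line, in which Cre made under Foxa2 control switches on a yellow fluorescent protein (YFP) reporter, so that a cell and its descendants stay marked after Foxa2 expression. The 4 types were YFP+ cardiac mesoderm (labelled ventricular), YFP- cardiac mesoderm (labelled non-ventricular), endoderm sorted as EPCAM+ and hematopoietic mesoderm sorted as KDR+, with 3 libraries of each. No treatment was given in the labels. The number of cells or embryos behind a library, the zygosity of the alleles and whether replicates came from separate litters are not given in the labels, so p-values measure the spread between these libraries, which may be technical in part.

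Complex I takes electrons from NADH and complex II takes them from succinate, both pass them to ubiquinone, complex III hands them to cytochrome c and complex IV reduces oxygen to water. Complexes I, III and IV pump protons across the inner membrane and are built from subunits encoded in the nucleus together with a few core subunits encoded in mitochondrial DNA, whereas all subunits of complex II are encoded in the nucleus. Several complex IV subunits exist in a general form and in forms restricted to heart and skeletal muscle, testis or lung. Maturing cardiomyocytes are known for a high content of respiratory chain, while gastrulating embryos are known for a strong reliance on glycolysis.

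Gene counts totalled 4472800 to 7888631 per library. Between 12484 and 14491 genes were detected in the hematopoietic mesoderm libraries, 13671 to 14677 in YFP+ cardiac mesoderm, 15356 to 16078 in YFP- cardiac mesoderm and 18547 to 18618 in endoderm. Levels are gene counts scaled to a fixed library total (CPM) after trimmed-mean (TMM) scaling, and 3 counts correspond to 0.380 to 0.671 CPM in a single library. The genes used for sorting followed the labels. Epcam measured 239, 203 and 216 CPM in endoderm, and the highest of the other 9 libraries was 68.6 CPM, in hematopoietic mesoderm replicate 3. Kdr was high in all mesoderm libraries, with 662, 698 and 961 CPM in hematopoietic mesoderm, 520.4, 619.9 and 474 in YFP+ and 486, 538 and 442 in YFP- cardiac mesoderm, against 9.99, 4.77 and 16.3 in endoderm. Foxa2 was at 0 in all 3 YFP- cardiac mesoderm libraries and at 0.415, 0 and 5.90 CPM in YFP+ cardiac mesoderm. The summed level of 9 visceral endoderm markers was 1681 to 4926 CPM in endoderm and between 52.5 and 169.8 CPM elsewhere, with Amn at 0 in all YFP- cardiac mesoderm and Apom in all hematopoietic mesoderm libraries. The 9 hematopoietic and endothelial markers summed to 1557 to 2569 CPM in hematopoietic mesoderm and 46.8 to 347 CPM elsewhere. The 5 primitive erythroid markers summed to 5.02 to 36.6 CPM in hematopoietic mesoderm and 5.39 to 47.0 CPM in YFP+ cardiac mesoderm, with Hba-x and Hbb-y at 0 in all 12 libraries. Endoderm also held markers of the epiblast: the 5 summed to 930 to 978 CPM there and 298 to 478 CPM elsewhere, and 4 (Dnmt3b, Utf1, Nanog and Sox2) passed the edgeR test as higher in endoderm than in the mean of the mesoderm types. Of 5 extraembryonic ectoderm markers, Elf5 passed in the same direction. The sum of the 5 was not highest in endoderm, at 297 to 360 CPM against 343 to 487 in YFP+ and 332 to 410 in YFP- cardiac mesoderm. Hematopoietic mesoderm replicate 3 stood apart from replicates 1 and 2 in several lists. Its sum was 2221 CPM for 10 cardiac mesoderm markers against 1070 and 1196, 380.3 CPM for 9 endoderm markers against 104 and 72.8, 331 CPM for the extraembryonic ectoderm markers against 49.5 and 28.1, and 1557 CPM for the hematopoietic and endothelial markers against 2220.1 and 2569. The cardiac mesoderm markers, which include Kdr, summed to 2112 to 2561 CPM in YFP+ and 1933 to 2183 CPM in YFP- cardiac mesoderm, and 171 to 235 CPM in endoderm. Hematopoietic mesoderm replicate 3 thus lay above all 3 YFP- cardiac mesoderm libraries in that sum. The part of other cell types in the levels of respiratory chain genes was not tested. Raw counts of 7 mitochondrial DNA genes hardly varied between libraries, as given with the counts per base after the comparisons. The part of the same behaviour in the differences of other abundant genes was not tested. In bulk libraries, fewer expressing cells and less RNA per cell cannot be told apart.

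Respiratory chain genes were expressed in every type, and their summed level differed little between the 12 libraries. The 71 genes together measured 2635 to 3381 CPM, a 1.28-fold range. They took 0.278% to 0.333% of the gene counts. By type the sum was 3060 ± 187 CPM (SD, n = 3) in YFP+ cardiac mesoderm, 3045 ± 138 in YFP- cardiac mesoderm, 3242 ± 122 in the hematopoietic mesoderm and 2913 ± 255 in endoderm. Libraries overlapped between types except that all 3 hematopoietic mesoderm sums (lowest 3151 CPM) lay above all 3 endoderm sums (highest 3137 CPM). That separation and the order of the type means depended on the scaling: hematopoietic mesoderm was highest after TMM scaling, whereas YFP- cardiac mesoderm was highest, at 3123 CPM, when counts were divided by the library total alone, and endoderm and hematopoietic mesoderm then overlapped. The sum of complex I, which holds the most genes (40), had the narrowest range, at 1355 to 1740 CPM over the 12 libraries, or 1.28-fold. Sums over different numbers of genes do not rank the evenness of single genes, and in complex I Ndufb10 ranged 213-fold and Ndufa1 183-fold. The sum of complex II spanned 1.45-fold, that of complex III 1.79-fold and that of complex IV 1.73-fold. Both ends of the complex III range were hematopoietic mesoderm libraries (279 CPM in replicate 1 and 499.7 CPM in replicate 2), and complex IV was highest in hematopoietic mesoderm replicate 1, at 823 CPM. Complex IV sums of YFP+ cardiac mesoderm (594 to 619.5 CPM) lay above those of YFP- cardiac mesoderm and endoderm, and overlapped both when scaled by library totals.

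**Figure D1:**
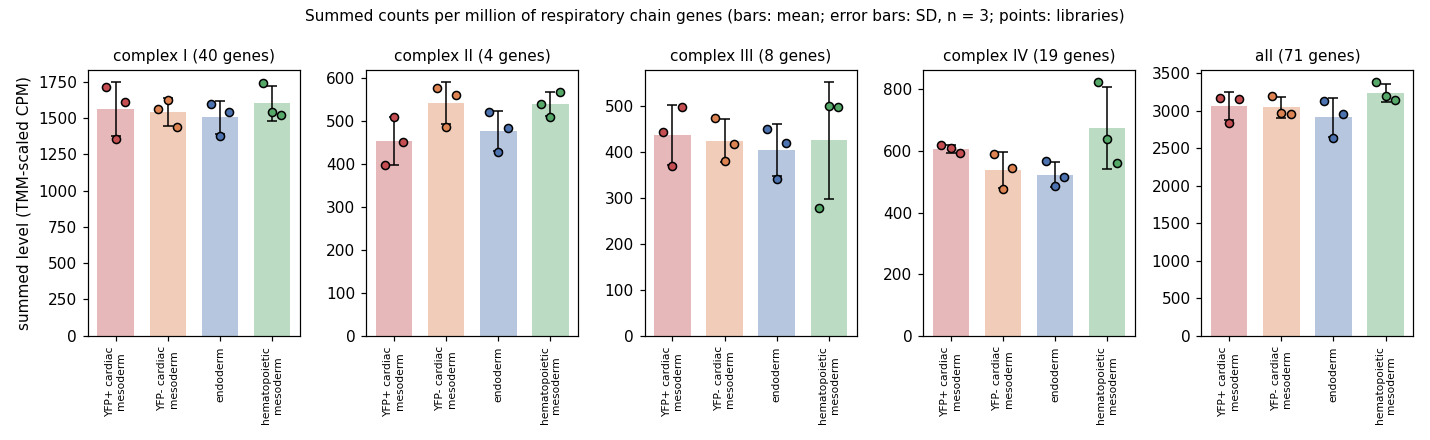
Summed level of the genes of each complex and of all 71 genes in TMM-scaled CPM (y axis, from 0) for the 4 cell types (x axis). Bars are means, error bars are SD over 3 libraries and points are single libraries. The total runs from 2635 to 3381 CPM with all types within 1.28-fold, and the widest scatter within a type is that of hematopoietic mesoderm in complexes III and IV.

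Within this steady total, 55 of the 71 genes had more than 3 counts in all 12 libraries. Expression filtering kept 61 genes for testing, namely 37 of complex I, all 4 of complex II, all 8 of complex III and 12 of complex IV. The 10 others were Cox4i2, Cox6a2, Cox6c2, Cox7a1, Cox7b2, Cox8b, Cox8c, Ndufa11b, Ndufb4c and Ndufs6b, of which all but Cox4i2 stayed at or below 3.18 CPM in every library. Levels can be compared between genes only per length, and were divided by the length of each gene's merged exons. Merged exons hold the bases of all annotated transcripts of a gene, so that values per length and their order also depend on the annotation. On that scale the highest means over the 12 libraries were Cox8a (99.3 CPM per kb), Cox6a1 (93.2) and Uqcr10 (91.1), small subunits of complexes IV and III, and the lowest of complex IV among genes tested was Cox6b2 (7.40).

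**Figure D2:**
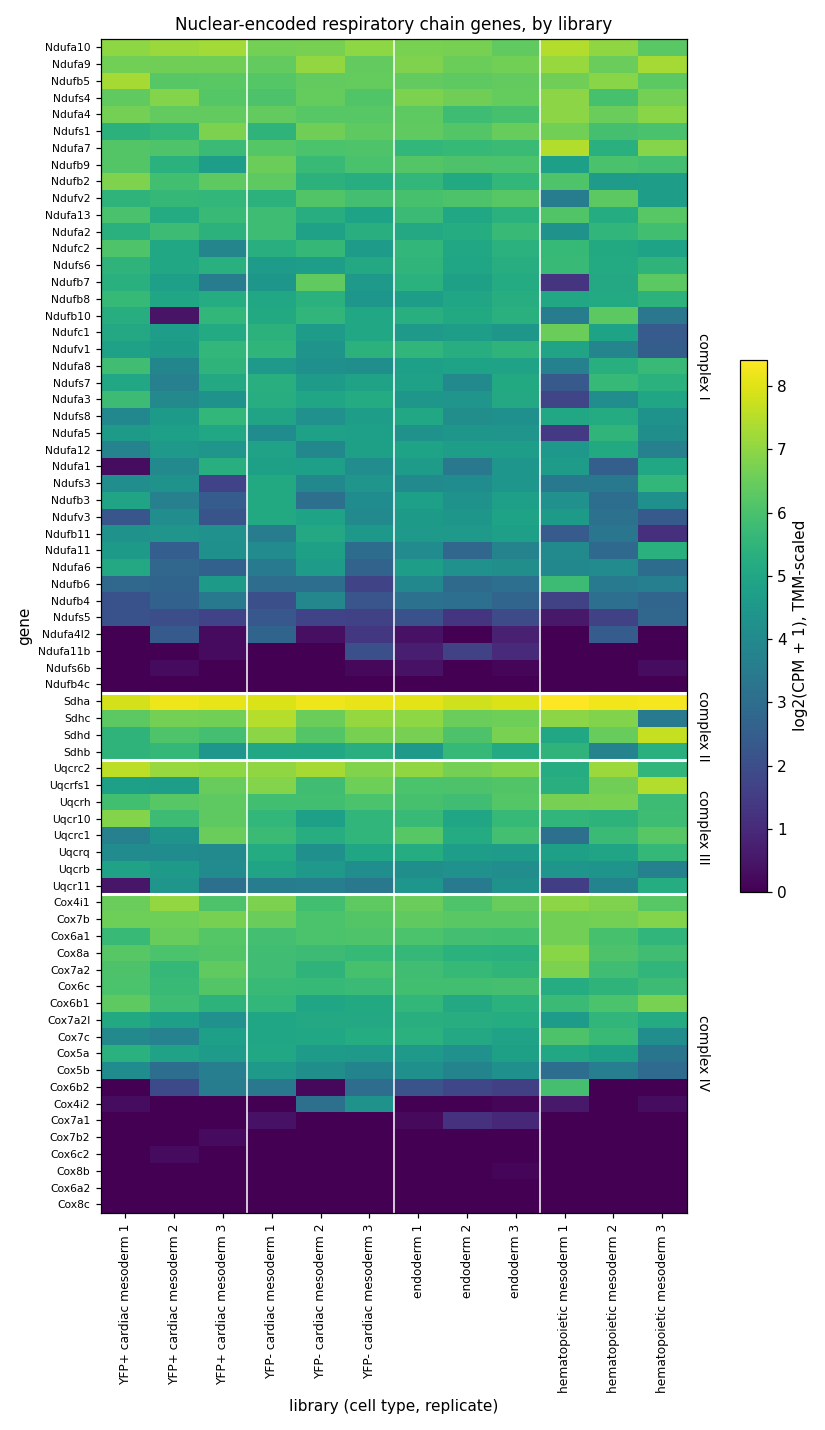
Level of 70 of the 71 genes (rows, by complex and then by mean level) in each of the 12 libraries (columns, 3 per type), as log2(CPM + 1) after TMM scaling; dark cells are low and yellow cells high. Rows are close to even in endoderm and YFP- cardiac mesoderm, single dark cells stand out in YFP+ cardiac mesoderm and hematopoietic mesoderm, and the restricted forms at the foot of complex IV are dark nearly throughout.

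In complex I, the 2 genes with the highest level per length were Ndufa2 (72.4 CPM per kb) and Ndufa4 (61.9 CPM per kb). Ndufa4 is grouped here by its symbol, although its protein is known as a complex IV subunit. The lowest gene tested was Ndufa4l2 (1.31 CPM per kb), a paralogue of Ndufa4 known to be induced by low oxygen. The core subunits, which are shared with bacterial complex I and some of which carry the redox centres, differed in how evenly they were measured. Ndufs1, the large iron-sulfur subunit of the NADH-oxidising arm, ranged from 41.3 to 108 CPM. The flavin-bearing Ndufv1, which accepts electrons from NADH, measured 27.0, 23.1 and 46.8 CPM in YFP+ cardiac mesoderm, 44.3, 19.5 and 41.1 in YFP- cardiac mesoderm, 29.5, 13.3 and 4.60 in the hematopoietic mesoderm and 45.8, 36.5 and 43.9 in endoderm. Its endoderm libraries lay above all 3 hematopoietic mesoderm libraries (log2 fold change 1.41, SE 0.71, adjusted p = 0.264 by edgeR's quasi-likelihood test). The partner subunit Ndufv2 ranged from 10.6 to 78.0 CPM, with 10.6, 78.0 and 25.1 CPM in hematopoietic mesoderm. The iron-sulfur subunits Ndufs7 and Ndufs8 of the quinone-reducing arm ranged from 4.08 to 49.4 CPM and from 14.1 to 47.0 CPM, and Ndufs3 from 2.21 to 46.9 CPM. None of these 6 core genes differed between types past the threshold.

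The most even genes of complex I were supernumerary subunits. Ndufa9, which sits at the junction of the membrane and peripheral arms, measured 96.9, 96.1 and 95.2 CPM in YFP+ cardiac mesoderm, 83.0, 132 and 83.0 in YFP- cardiac mesoderm, 137, 89.2 and 154 in the hematopoietic mesoderm and 111, 91.0 and 97.5 in endoderm. Its highest library was 1.85 times its lowest. Ndufs4 (1.98 times), Ndufb5 (2.11 times) and Ndufs6 (2.15 times) were close behind. At the other end, Ndufb10 had 178, 2 and 252 counts in the 3 YFP+ cardiac mesoderm libraries, and Ndufa1 had 1, 84 and 206. In both genes a single library of the type was almost empty while the others were at usual levels.

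Complex II is the succinate dehydrogenase that also serves the tricarboxylic acid cycle. Sdha, the flavoprotein that oxidises succinate, was the most evenly measured of all 71 genes. Sdha (chr13:74322254-74350280, minus strand, GRCm38) measured 232, 293 and 274 CPM in YFP+ cardiac mesoderm, 243, 293 and 281 in YFP- cardiac mesoderm, 341, 298 and 311 in the hematopoietic mesoderm and 271, 224 and 249 in endoderm. The highest library was 1.53 times the lowest, and the hematopoietic mesoderm libraries lay above the other 9. The difference between endoderm and hematopoietic mesoderm did not pass the threshold (log2 fold change -0.35, SE 0.16, adjusted p = 0.203, edgeR). Sdhb, the iron-sulfur subunit, was the lowest of the 4 per length, at 15.4 CPM per kb against 66.9 for Sdha and 72.1 for Sdhd. Its level was 37.3 ± 14.9 CPM (SD, n = 3) in YFP+ cardiac mesoderm, 33.9 ± 4.49 in YFP- cardiac mesoderm, 31.9 ± 16.9 in the hematopoietic mesoderm and 35.1 ± 12.9 in endoderm. In hematopoietic mesoderm replicate 3 the membrane anchors stood at opposite ends, with Sdhc at its lowest of the 12 libraries and Sdhd at its highest. Sdhc measured 123, 112 and 10.3 CPM and Sdhd 31.2, 87.2 and 206 CPM in the 3 hematopoietic mesoderm libraries. In the other 9 libraries Sdhc stayed between 78.4 and 178 CPM and Sdhd between 43.3 and 124 CPM. Sdhd was lower in all 3 YFP+ than in all 3 YFP- cardiac mesoderm libraries, with 43.3, 67.0 and 58.5 against 124, 71.5 and 103 CPM, and the difference did not pass the threshold (log2 fold change -0.82, SE 0.54, adjusted p = 0.802, edgeR).

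Complex III was led per length by the small subunit Uqcr10 (91.1 CPM per kb) and by the hinge protein Uqcrh (56.6), and Uqcrc1 was lowest (11.2). Uqcr10 measured 115, 53.8 and 79.7 CPM in YFP+ cardiac mesoderm, 46.8, 26.3 and 45.5 in YFP- cardiac mesoderm, 45.6, 42.1 and 55.5 in the hematopoietic mesoderm and 49.5, 30.1 and 48.8 in endoderm. Its YFP+ libraries lay above all YFP- and endoderm libraries, and against YFP- cardiac mesoderm it had the largest positive change of all 61 genes (log2 fold change 1.07, SE 0.46, adjusted p = 0.64, edgeR; unadjusted p = 0.0376). The core protein Uqcrc2 (chr7:120635176-120659524, plus strand, GRCm38) measured 190.0, 139 and 125 CPM in YFP+ cardiac mesoderm, 129, 155 and 112 in YFP- cardiac mesoderm, 36.0, 142 and 45.6 in the hematopoietic mesoderm and 128, 101 and 113 in endoderm. Hematopoietic mesoderm replicate 2 was level with the other types, whereas replicates 1 and 3 were the lowest of the 12 libraries. The Rieske iron-sulfur protein Uqcrfs1 was spread most widely in the same type, with 37.9, 96.7 and 175 CPM, and stood at 64.7, 66.6 and 68.5 CPM in endoderm. Uqcrc1 ranged from 7.68 to 89.1 CPM and Uqcr11 from 0.415 to 36.2 CPM, while Uqcrh stayed within 1.97-fold over all 12 libraries. Uqcrq was lower in all YFP+ libraries than in every library of the other types, at 15.6, 16.2 and 14.9 CPM, and its change against hematopoietic mesoderm did not pass the threshold (log2 fold change -1.14, SE 0.60, adjusted p = 0.324, edgeR).

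In complex IV the general forms were expressed in every library. Cox8a measured 73.4, 65.2 and 69.0 CPM in YFP+ cardiac mesoderm, 55.8, 54.0 and 49.4 in YFP- cardiac mesoderm, 121, 66.3 and 56.3 in the hematopoietic mesoderm and 47.2, 40.8 and 39.8 in endoderm. Endoderm had the 3 lowest values of the 12, and the change against hematopoietic mesoderm did not pass the threshold (log2 fold change -0.93, SE 0.40, adjusted p = 0.178, edgeR). Cox7b ranged from 64.4 to 116 CPM and Cox6c from 36.5 to 70.3 CPM, each within 2-fold. Cox4i1, the general form of the largest nuclear subunit, measured 89.8, 133 and 66.4 CPM in YFP+ cardiac mesoderm, 108, 57.4 and 79.7 in YFP- cardiac mesoderm, 123, 110.5 and 73.5 in the hematopoietic mesoderm and 90.2, 67.9 and 86.7 in endoderm, with overlap between all types. The peripheral subunits Cox5a and Cox5b ranged from 8.58 to 40.2 CPM and from 6.70 to 22.4 CPM. Cox7a2l, which joins complexes III and IV into supercomplexes, ranged from 18.3 to 45.2 CPM.

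Forms known from heart and skeletal muscle were at or near 0 at this stage, also in cardiac mesoderm. Cox6a2 had no count in any library, Cox8b had 1 count in all, in endoderm, and Cox7a1 had 1, 10 and 8 counts in endoderm, 2, 0 and 0 in YFP- cardiac mesoderm and none elsewhere. A count of 0 over the 72513297 gene counts of the 12 libraries allows up to 0.0414 CPM (3 counts), covering counting error only. The testis forms Cox7b2 (1 count) and Cox8c (0 counts) were likewise at or under that limit. Cox4i2, the lung form known to respond to oxygen, exceeded 2 counts in 2 libraries only, YFP- cardiac mesoderm replicates 2 and 3, with 0, 55 and 132 counts in that type and at most 2 counts in each library of the other types. Cox6b2, another testis form, had 251, 0 and 0 counts in hematopoietic mesoderm, 0, 15 and 59 in YFP+ and 56, 1 and 49 in YFP- cardiac mesoderm and 22, 19 and 17 in endoderm. The single library of 60.3 CPM among 2 at 0 in hematopoietic mesoderm gave the largest coefficient of variation of that type together with Ndufa4l2 (1.73 for both). Ndufa4l2 had 0, 23 and 1 counts in YFP+ cardiac mesoderm, 33, 2 and 11 in YFP-, 0, 26 and 0 in the hematopoietic mesoderm and 2, 0 and 6 in endoderm. Ndufa11b had 4, 16 and 9 counts in endoderm, 0, 0 and 22 in YFP- cardiac mesoderm and at most 1 elsewhere. Cox6c2, Ndufs6b and Ndufb4c had 1, 6 and 0 counts in all. Every 50-base word of Ndufb4c also occurs in other annotated transcripts, so that reads aligned to 1 place cannot count it.

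**Figure D3:**
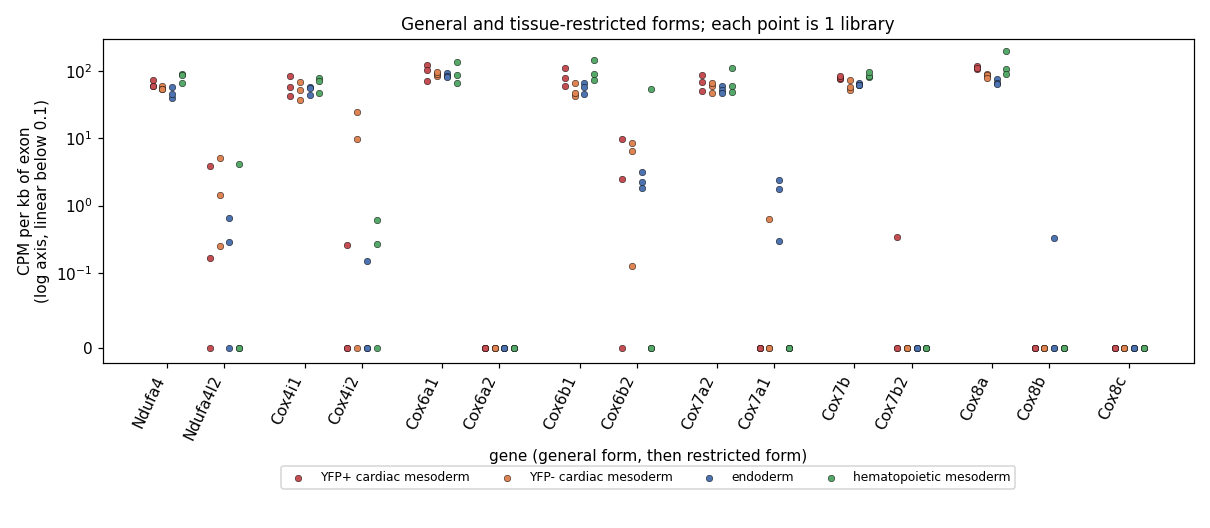
Level per length (y axis, CPM per kb of exon, log axis that is linear below 0.1) of general forms and the restricted forms of the same subunit (x axis); each point is 1 library, coloured by cell type. The general forms lie above all restricted forms apart from 1 hematopoietic mesoderm library of Cox6b2, whereas Cox6a2 and Cox8c are at 0 in all 12 and Cox4i2 rises above 1 CPM per kb in 2 libraries.

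Promoter sequences are shown for 5 genes expressed in every library, which hold motif matches, and for 2 restricted forms that were at 0 in some or nearly all libraries, which hold none. These are chosen examples and do not relate matches to expression. The windows of Sdha and Cox7b, also expressed in every library, held no match. Windows of 300 bases, from 250 bases before to 50 bases after the annotated start, came from RefSeq (GRCm38.p6), and 53 of the 71 genes matched. Sequences run 5′ to 3′ on the strand of the gene, and capitals mark matches to motifs of 3 factors known to act on respiratory chain genes: GCATGCGC for NRF1, CCGGAAG for GABPA and AAGATGGC for YY1, each searched on both strands. Matches of NRF1 on the 2 strands can overlap each other. Cox6a1 (chr5:115348909-115349208, minus strand) held an NRF1 match on both strands and a GABPA match. Sdhb (chr4:140961021-140961320, plus strand) held 1 NRF1 and 1 GABPA match. Ndufa9 (chr6:126849095-126849394, minus strand) held a YY1 match just after the start, and Cox8a (chr19:7217567-7217866, minus strand) held 2 GABPA matches.
Cox6a1: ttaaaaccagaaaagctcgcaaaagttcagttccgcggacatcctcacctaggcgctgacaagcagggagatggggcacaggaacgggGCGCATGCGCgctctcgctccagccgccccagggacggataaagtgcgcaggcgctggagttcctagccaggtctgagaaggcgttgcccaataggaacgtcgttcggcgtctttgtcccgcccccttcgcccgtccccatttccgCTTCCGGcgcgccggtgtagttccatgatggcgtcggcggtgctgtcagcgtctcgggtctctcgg
Sdhb: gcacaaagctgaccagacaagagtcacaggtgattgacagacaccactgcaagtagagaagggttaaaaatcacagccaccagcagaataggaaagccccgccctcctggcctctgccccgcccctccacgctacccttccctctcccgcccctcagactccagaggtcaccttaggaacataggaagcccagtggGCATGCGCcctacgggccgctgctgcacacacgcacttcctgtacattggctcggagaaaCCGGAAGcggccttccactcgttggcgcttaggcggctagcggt
Ndufa9: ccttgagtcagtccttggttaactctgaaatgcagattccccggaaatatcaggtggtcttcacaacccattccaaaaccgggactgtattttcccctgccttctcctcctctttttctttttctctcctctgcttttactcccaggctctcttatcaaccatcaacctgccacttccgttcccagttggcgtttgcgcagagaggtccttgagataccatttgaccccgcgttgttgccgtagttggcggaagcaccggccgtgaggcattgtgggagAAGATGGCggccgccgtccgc
Cox8a: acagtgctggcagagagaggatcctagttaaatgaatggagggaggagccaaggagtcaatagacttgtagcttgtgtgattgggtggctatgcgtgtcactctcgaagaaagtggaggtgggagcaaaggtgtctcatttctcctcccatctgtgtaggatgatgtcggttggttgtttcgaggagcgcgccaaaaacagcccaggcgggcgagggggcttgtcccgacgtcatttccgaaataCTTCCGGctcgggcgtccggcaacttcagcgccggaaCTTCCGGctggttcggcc

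The window of the muscle form Cox8b (chr7:140900397-140900696, minus strand) held no match, and neither did that of the testis form Cox6b2 (chr7:4753045-4753344, minus strand), while that of the general form Cox6b1 (chr7:30626065-30626364, minus strand) held 1 GABPA match. CpG dinucleotides numbered 2 in the Cox8b window against 19 in that of Cox8a, and 10 in Cox6b2 against 17 in Cox6b1.
Cox8b: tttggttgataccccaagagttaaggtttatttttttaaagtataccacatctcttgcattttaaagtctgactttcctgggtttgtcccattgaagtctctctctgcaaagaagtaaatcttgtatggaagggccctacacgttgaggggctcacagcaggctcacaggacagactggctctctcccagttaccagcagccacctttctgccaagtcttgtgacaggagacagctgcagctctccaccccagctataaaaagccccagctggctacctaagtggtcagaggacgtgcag
Cox6b1: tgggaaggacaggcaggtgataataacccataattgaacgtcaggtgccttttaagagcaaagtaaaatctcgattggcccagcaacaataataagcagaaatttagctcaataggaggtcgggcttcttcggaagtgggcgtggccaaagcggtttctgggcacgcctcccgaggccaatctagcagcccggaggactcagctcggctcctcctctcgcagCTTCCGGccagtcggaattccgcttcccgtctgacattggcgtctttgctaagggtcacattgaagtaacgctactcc
Cox6b2: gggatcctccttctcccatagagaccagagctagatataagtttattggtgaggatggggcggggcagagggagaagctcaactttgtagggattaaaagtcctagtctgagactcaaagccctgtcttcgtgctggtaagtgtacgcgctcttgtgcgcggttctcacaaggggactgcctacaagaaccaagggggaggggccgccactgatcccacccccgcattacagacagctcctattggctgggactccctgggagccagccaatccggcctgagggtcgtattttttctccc

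Over the 52 windows of tested genes, 7 held an NRF1 match (13.5%), 11 a GABPA match (21.2%) and 7 a YY1 match (13.5%), and 22 held at least 1 of the 3 (42.3%). Of all 32851 windows in the table, 2.71%, 8.86% and 2.75% held the respective motif and 13.3% at least 1. The median number of CpG dinucleotides was 19 in the windows of tested genes and 7 over all windows. A match is a description of the sequence, and its absence says only that these letters do not occur in the window.

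YFP+ and YFP- cardiac mesoderm differ in their history of Foxa2 expression, and their comparison addresses how the labelled ventricular fraction differs from the non-ventricular one. No respiratory chain gene passed the threshold there: 0 of 61 genes had an adjusted p under 0.05 by edgeR's quasi-likelihood test, with p-values adjusted over all 14170 genes tested, of which 0.0% passed. Uqcr10 alone had an unadjusted p under 0.05, against 7.49% of all genes. DESeq2 and limma with library weights also called 0, and shares of all genes are given here and below for edgeR only. The median log2 fold change was -0.05 over the 61 genes and 0.03 over all genes. The largest changes were Uqcr10 (1.07) and Ndufb6 (log2 fold change 1.06, SE 1.02, adjusted p = 0.917) upward, and Ndufv3 (log2 fold change -1.70, SE 0.93, adjusted p = 0.737) and Uqcrfs1 (log2 fold change -0.94, SE 0.59, adjusted p = 0.785) downward. Ndufv3 measured 3.73, 16.3 and 3.50 CPM in YFP+ and 33.6, 28.3 and 14.9 CPM in YFP- cardiac mesoderm, and the groups overlapped. For 7 of the 61 genes all libraries of 1 fraction lay above all of the other, against 12.1% of all genes. Uqcr10, Cox7b, Cox8a and Ndufa4 were the ones higher in YFP+, and Cox7c, Uqcrq and Sdhd the ones lower.

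The precision of these tests limits what they can show. The 95% interval of a gene's change between 2 types had a median half-width of 1.33 on the log2 scale, or 2.51-fold, for YFP+ against YFP- cardiac mesoderm. For 6 of the 61 genes the whole interval lay within 2-fold in either direction, against 15.8% of all genes. Sdha had the narrowest interval, from -0.37 to 0.31 on the log2 scale. The interval of each of the other 55 genes reached past 2-fold in at least 1 direction.

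Endoderm, whose libraries also held epiblast markers (sum of 930.0 to 978 CPM against 298 to 478 CPM elsewhere), gave the same count against mesoderm. Against the mean of the 3 mesoderm types, 0 of 61 genes passed, whereas 7.43% of all genes did, and 0 had an unadjusted p under 0.05 (18.9% of all genes). DESeq2 and limma also called 0. The median log2 fold change was -0.09 for the 61 genes and 0.07 for all genes (0.03 and 0.19 with library totals alone), and for 14 genes the 95% interval lay within 2-fold (18.7% of all genes). Cox8a was the only gene whose 3 endoderm libraries lay outside the other 9, against 8.97% of all genes, and its change did not pass (log2 fold change -0.65, SE 0.33, adjusted p = 0.333, edgeR). Separately, 0 of 61 genes passed against YFP+ cardiac mesoderm (1.54% of all genes) and 0 against YFP- cardiac mesoderm (1.31%), with none at an unadjusted p under 0.05 in either (15.8% and 10.3% of all genes). YFP+ cardiac mesoderm and endoderm did not overlap for 14 genes, 7 in each direction (30.3% of all genes). The largest changes, YFP+ cardiac mesoderm relative to endoderm, were 2.02 for Ndufa4l2 and 0.96 for Ndufb2 upward, and -1.61 for Ndufv3 and -0.94 for Cox7c downward. YFP- cardiac mesoderm and endoderm did not overlap for 5 genes (29.4% of all genes). The largest changes in that pair were 2.76 for Ndufa4l2 and 1.05 for Cox6b2 upward, and -0.75 for Ndufb6 and -0.67 for Uqcr11 downward. The sign of Ndufa4l2 against YFP+ cardiac mesoderm rested on 1 library, with a change of -1.66 without YFP+ replicate 2. The adjusted p of these 8 changes lay between 0.449 and 1 by edgeR.

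Hematopoietic mesoderm was compared with each other type. By edgeR, 0 of 61 genes passed against YFP+ cardiac mesoderm (1.79% of all genes), 0 against YFP- cardiac mesoderm (0.593%) and 0 against endoderm (5.65%). An unadjusted p under 0.05 was reached by 2, 2 and 5 genes, against 19.5%, 17.4% and 22.8% of all genes. Limma called 0 in all 3 pairs, and DESeq2 called 0, 1 and 1, the gene being Ndufb11 both times. No share of all genes is given for limma or DESeq2, so these counts cannot be compared with all genes. Ndufb11, an accessory subunit on the X chromosome (chrX:20615326-20617619, minus strand, GRCm38), measured 18.9, 19.8 and 18.1 CPM in YFP+ cardiac mesoderm, 10.5, 33.1 and 21.7 in YFP- cardiac mesoderm, 4.32, 8.80 and 1.26 in the hematopoietic mesoderm and 22.2, 22.7 and 25.8 in endoderm. All 3 hematopoietic mesoderm libraries were below the other 9. The log2 fold change was 1.97, 2.17 and 2.29 for YFP+ cardiac mesoderm, YFP- cardiac mesoderm and endoderm relative to it, with edgeR adjusted p-values of 0.226, 0.220 and 0.129 and DESeq2 adjusted p-values of 0.0451 for YFP- cardiac mesoderm and 0.0177 for endoderm. Of its 50-base words, 17.5% occur in other genes, and it overlaps Rbm10 on the other strand, so that its count is uncertain where strand was not used.

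The result for Uqcrc2 depended on 1 library. Of its 50-base words, 17.6% occur in other genes. With all libraries, its level in YFP+ cardiac mesoderm relative to hematopoietic mesoderm had an adjusted p of 0.223 (log2 fold change 1.02, edgeR). Without hematopoietic mesoderm replicate 2, it was called lower in hematopoietic mesoderm against all 3 types, with adjusted p-values of 0.0134, 0.0266 and 0.0203 for YFP+ cardiac mesoderm, YFP- cardiac mesoderm and endoderm. Ndufa7, called lower in endoderm than in hematopoietic mesoderm without the same library (adjusted p = 0.0251, edgeR), measured 175, 39.7 and 118 CPM in the hematopoietic mesoderm and 46.3, 48.8 and 52.5 in endoderm, where replicate 2 of the former lay below all endoderm libraries. With all libraries its adjusted p was 0.142.

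The other large changes with hematopoietic mesoderm carried wide errors. Endoderm relative to it gave log2 fold change -2.91, SE 2.30, adjusted p = 0.515 for Cox6b2 and log2 fold change -2.07, SE 2.13, adjusted p = 0.644 for Ndufa4l2 (edgeR), and both rested on 1 hematopoietic mesoderm library with counts. The change was 7.06 for Cox6b2 without hematopoietic mesoderm replicate 1 and 4.16 for Ndufa4l2 without replicate 2, in the opposite direction. Ndufb6 was lower in all YFP- cardiac mesoderm libraries, at 7.01, 7.26 and 2.31 CPM, than in hematopoietic mesoderm, at 53.1, 10.4 and 11.3 CPM (log2 fold change -2.17, SE 1.05, adjusted p = 0.31, edgeR). In that pair the log2 fold change was 1.15 for Ndufv1 and -1.86 for Cox6b2. For YFP+ cardiac mesoderm the largest values were 1.09 for Ndufb2 upward, -2.14 for Cox6b2 and -1.34 for Cox7c downward. The adjusted p of these 5 changes lay between 0.264 and 0.740 (edgeR). The median log2 fold change of the 61 genes relative to hematopoietic mesoderm was -0.09 for YFP+ cardiac mesoderm, -0.06 for YFP- cardiac mesoderm and -0.16 for endoderm, against 0.03, 0.02 and 0.07 for all genes. With library totals alone it was -0.06, 0.05 and 0.02, as that scaling shifted the median of all genes by 0.03, 0.12 and 0.17. The libraries did not overlap for 3 genes against YFP+ cardiac mesoderm (14.0% of all genes), 9 against YFP- cardiac mesoderm (18.6%) and 12 against endoderm (34.3%). Without hematopoietic mesoderm replicate 3, whose markers of other types stood apart, 63 respiratory chain genes were tested and 0 passed in each of the 8 tests. In the test for any difference among the 4 types, 0 of 61 genes passed (6.03% of all genes) and 0 had an unadjusted p under 0.05 (22.2%). DESeq2 and limma also called 0 there.

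**Figure D4:**
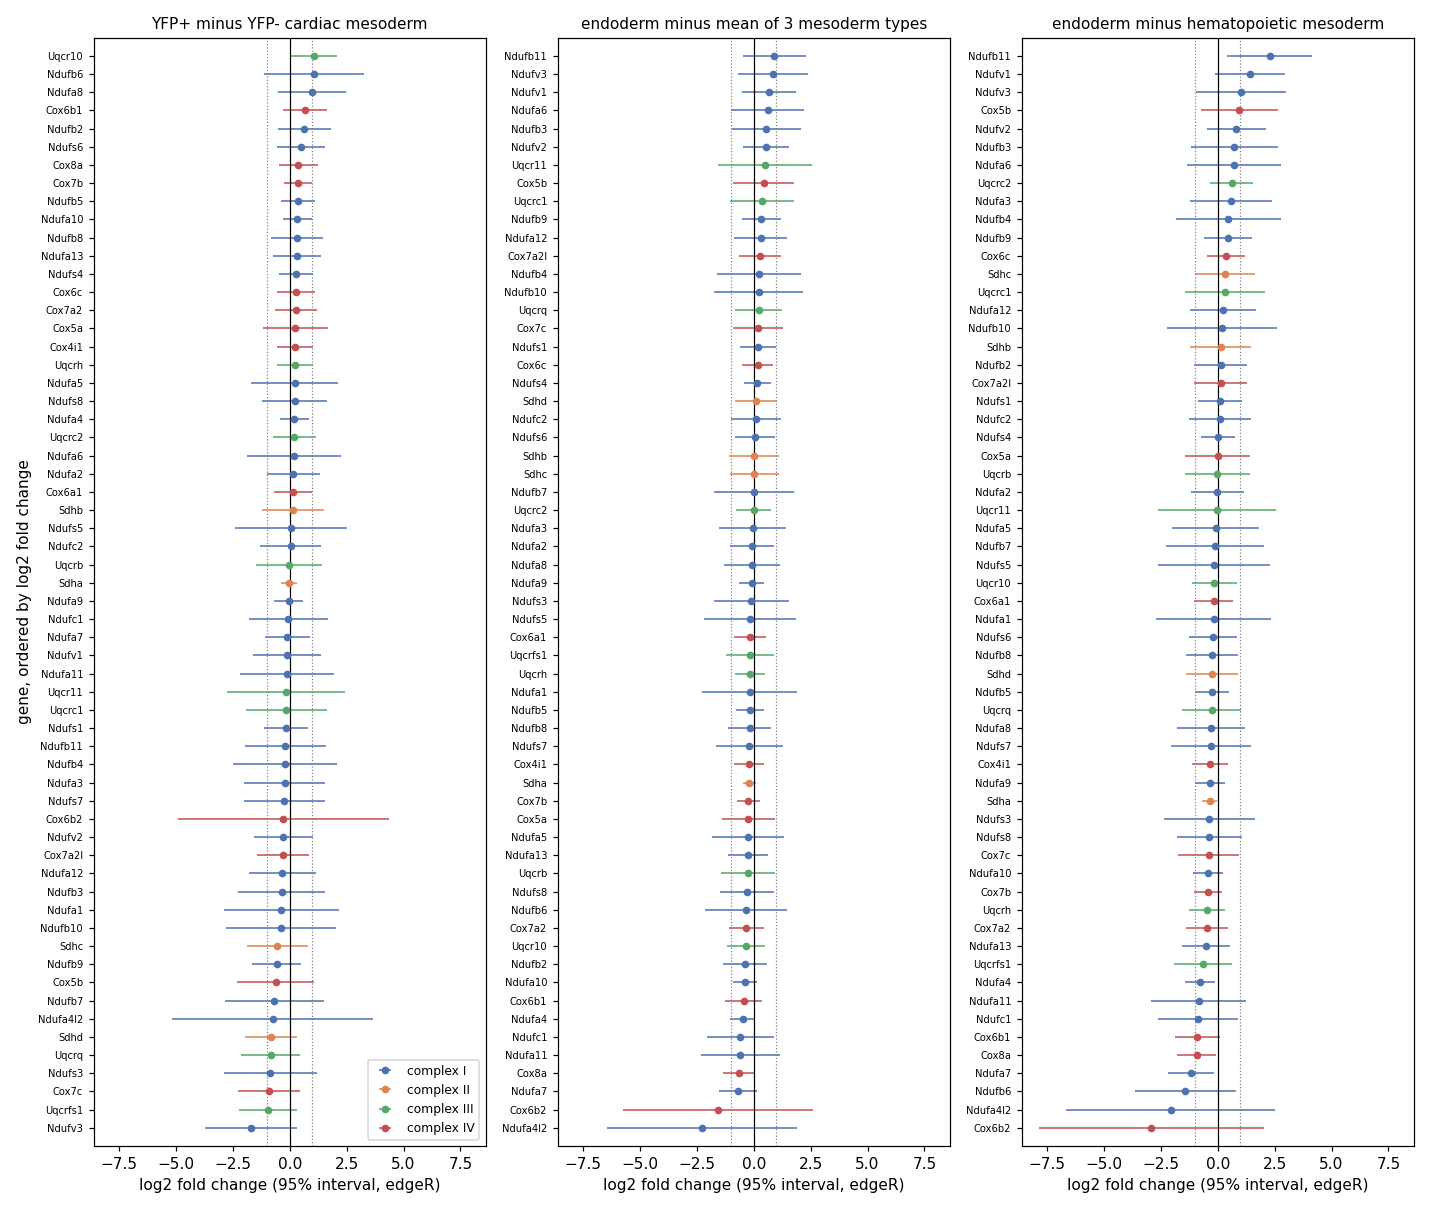
Log2 fold change of 60 of the 61 tested genes with its 95% interval by edgeR (x axis) for 3 comparisons, genes ordered by size of change (y axis) and coloured by complex; dotted lines mark 2-fold. Most points lie between the dotted lines, no gene passed an adjusted p of 0.05, and the widest intervals are those of Cox6b2 and Ndufa4l2.

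Raw counts of 7 mitochondrial DNA genes were nearly constant over the libraries. Of the 13 protein-coding genes of mitochondrial DNA, which supply the partner subunits of complexes I, III and IV, 7 had almost the same raw count in every library although the library totals differed 1.76-fold. Counts were 3226 to 3247 for mt-Nd5, 2219 to 2241 for mt-Cytb, 1794 to 1811 for mt-Nd1 and 1439 to 1451 for mt-Co1. The variance over the 12 libraries was 0.00202 to 0.146 times the mean in these 7 genes, whereas sampling of independent reads alone gives a variance equal to the mean. Their counts reached 0.742 to 1.96 per base of transcript, and of the 4986 genes with a mean count over 300, 4 exceeded 2 counts per base. Among the same 4986 genes, 11 had a variance below the mean, and 9 of these have mitochondrial (mt-) symbols. A level in CPM of such a gene follows the library total: mt-Nd5 and mt-Cytb passed the test as lower in endoderm than in hematopoietic mesoderm (adjusted p = 0.0377 and 0.0438, edgeR), with raw counts that were the same within 1.01-fold. Their levels are therefore not read as differences between types. Another 5 of the 13 genes were listed at 0 in all libraries, and mt-Nd3 had 4 to 11 counts.

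Respiratory chain genes reached counts per base below the highest of these, and their raw counts varied more. The highest count per base was 1.38 in Ndufa7, 1.28 in Uqcr10 and 1.12 in Uqcrh. Of the 71 genes, 23 exceeded 0.5, against 10.8% of all genes tested, so that high counts per base were more common among respiratory chain genes. No gene with a mean over 3 counts had a variance below its mean. Ndufa4 came closest to an even raw count, with 425 to 569 counts in the 12 libraries, a 1.34-fold range. Between endoderm, which had the deepest library, and hematopoietic mesoderm, which had the shallowest, the median log2 fold change of all genes tested was lower at higher counts per base, from 0.40 at under 0.25 through -0.17 and -0.30 to -0.48 at 1 or more. The tested respiratory chain genes gave -0.01 (12 genes), -0.02 (26), -0.25 (20) and -0.46 (3) in the same ranges. Sdha, Ndufa4, Cox8a and Ndufa7, which reached an unadjusted p under 0.05 as lower in endoderm, all exceeded 0.5 counts per base. The part of counts per base, of depth and of the number of genes detected in the levels of abundant genes was not tested.

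**Figure D5:**
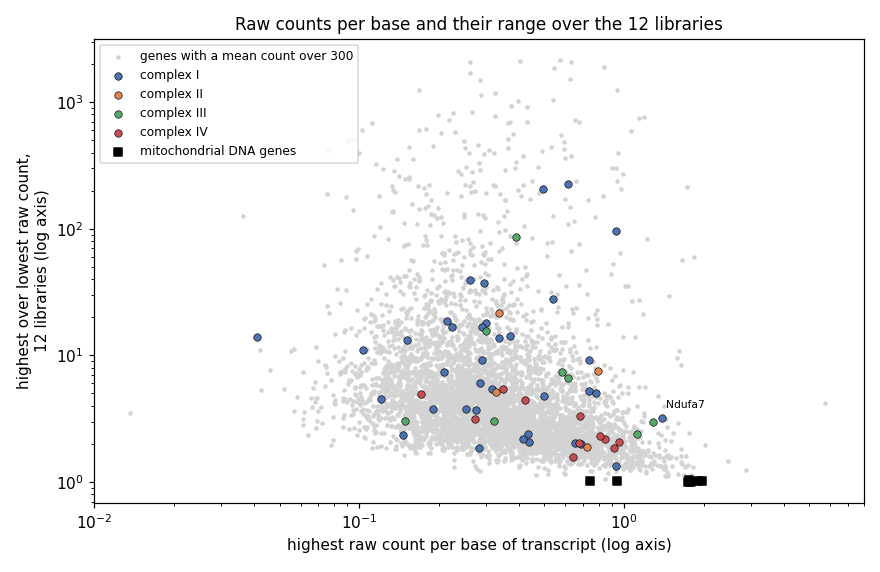
Highest raw count per base of the longest coding transcript (x axis, log) against the ratio of the highest to the lowest raw count over the 12 libraries (y axis, log). Grey points are genes with a mean count over 300, coloured points respiratory chain genes with a count in every library, black squares the 7 mitochondrial DNA genes with over 100 counts. The squares lie at a ratio of about 1, and the lowest respiratory chain gene is Ndufa4, of complex I by symbol, at 1.34.

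Respiratory chain genes varied less over the 12 libraries than other genes did. The SD of log2(CPM + 1) over the 12 libraries had a median of 0.58 in the 61 genes. It was 1.04 over all genes tested, 0.97 over the 3370 genes at a like level (22.4 to 70.0 CPM) and 0.77 over the 597 genes at a like level and a like mean count per base (0.145 to 0.442). Type means lay within 2-fold in 45 of the 61 genes (73.8%), against 36.8% of all genes, 40.9% at a like level and 59.8% at a like level and count per base. All 12 libraries lay within 3-fold in 20 genes (32.8%), against 17.3%, 6.59% and 15.1%. All 12 lay within 2-fold in 6 genes (9.84%), against 6.76%, 1.1% and 2.18%. The 6 were Sdha, Cox7b, Ndufa9, Cox6c, Uqcrh and Ndufs4. The like sets were cut at the quartiles of the 61 genes, whereas the values of respiratory chain genes cover all 61. Genes above the like level thus have no counterpart in those sets, such as Sdha, Ndufa9 and Ndufs4 with means of 276, 105 and 88.7 CPM. These shares are descriptions of the same libraries and carry no test.

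The scatter differed between types. A gene was counted as variable within a type when its highest library reached 10 CPM and at least 4 times its lowest. This held for 22 of 57 respiratory chain genes in hematopoietic mesoderm (48.3% of all genes), 13 of 58 in YFP+ cardiac mesoderm (39.2%), 3 of 57 in YFP- cardiac mesoderm (21.6%) and 0 of 57 in endoderm (5.56%). Of 56 genes with a median of at least 10 CPM, the number below 25% of the gene's own median was 8 in hematopoietic mesoderm replicate 1, 6 in replicate 3 and 1 in replicate 2. It was 4, 1 and 3 in the YFP+ cardiac mesoderm libraries and 0 in each of the 6 YFP- cardiac mesoderm and endoderm libraries. Low genes in hematopoietic mesoderm replicate 1 were Ndufa3, Ndufa5, Ndufb7, Ndufb11, Ndufs7, Ndufv2, Uqcr11 and Uqcrc1, and in replicate 3 they included Ndufb11, Ndufc1, Ndufv1, Ndufv3 and Sdhc. Ndufb11 was the 1 gene on both lists. Among all genes at that level, the share below 25% of the median was 15.3%, 6.20% and 16.8% in hematopoietic mesoderm replicates 1, 2 and 3. It was 8.11%, 5.31% and 5.92% in the YFP+ cardiac mesoderm libraries, 1.95%, 2.26% and 1.74% in YFP- cardiac mesoderm and 1.36% to 1.46% in endoderm. The shares of respiratory chain genes were 14.3%, 1.79% and 10.7% in hematopoietic mesoderm and 7.14%, 1.79% and 5.36% in YFP+ cardiac mesoderm. The order of the types follows the number of genes detected per library, whose part in the scatter was not tested. By coefficient of variation, the most scattered tested genes were Ndufa4l2 and Cox6b2 in YFP+ cardiac mesoderm (1.62 and 1.25), Ndufa4l2 and Ndufb4 in YFP- cardiac mesoderm (1.11 and 0.883) and Ndufa4l2 and Ndufb6 in endoderm (1.04 and 0.450).

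Of the genes of related mitochondrial pathways, 3 encoded in the nucleus passed a test. In lists compiled from general knowledge, no gene passed in any of the 8 tests among 14 complex I assembly genes, which include the subunit Ndufab1. None passed either among 25 tested assembly factors of complexes II to IV, 14 tricarboxylic acid cycle genes and 27 tested proteins of the small mitochondrial ribosome. Of 16 ATP synthase genes, 1 passed, Atp5b, the catalytic beta subunit. It measured 412, 329 and 315 CPM in endoderm and 571, 436 and 582 CPM in hematopoietic mesoderm (log2 fold change -0.59, SE 0.15, adjusted p = 0.0437, edgeR), where 5.65% of all genes passed, and the call was lost when any of 11 of the 12 libraries was left out. Its raw counts of 2317 to 2782 spanned only 1.20-fold. Of 17 genes of electron carriers and ubiquinone synthesis, with the complex III subunit Cyc1 among them, 1 passed in a pair. This was Etfdh, which feeds electrons from fatty acid oxidation to ubiquinone. Etfdh measured 35.5, 23.4 and 19.9 CPM in YFP+ cardiac mesoderm, between 59.3 and 68.5 in YFP- cardiac mesoderm, 144, 99.2 and 215 in the hematopoietic mesoderm and 80.0, 73.7 and 82.6 in endoderm. The libraries of YFP+ cardiac mesoderm were the 3 lowest and those of hematopoietic mesoderm the 3 highest. The change between these types was -2.54 (SE 0.39, adjusted p = 0.00838, edgeR, with 1.79% of all genes passing), kept when any 1 library was left out and lost with limma and with only the 2 types fitted. Of 15 tested regulators of mitochondrial biogenesis, 1 passed, the coactivator Pprc1, at 199.6, 215 and 248 CPM in endoderm against 345, 401 and 456 in YFP- cardiac mesoderm, 338, 353 and 435 in hematopoietic mesoderm and 296, 274 and 323 in YFP+ cardiac mesoderm. It passed for endoderm against YFP- cardiac mesoderm and against hematopoietic mesoderm, and did not pass against YFP+ cardiac mesoderm. The call against YFP- cardiac mesoderm was lost in 5 of 12 fits with 1 library left out (adjusted p up to 0.154, edgeR). That against hematopoietic mesoderm was lost in 3 of 12 and with library totals only (adjusted p up to 0.118, edgeR). Pprc1 fell by 0.68 on the log2 scale in endoderm relative to the mean of the mesoderm types (SE 0.14, adjusted p = 0.00937, edgeR, with 7.43% of all genes passing), and the call was lost without endoderm replicate 1 or 2, with an adjusted p of up to 0.0795. Its raw counts ranged from 1259 to 3160, or up to 0.602 per base.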

How the data were processed

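RNA-seq was made from total RNA of 12 sorted libraries, 3 for each of 4 cell types. The authors deposited a table of raw counts per gene for each library, not normalized; per the submitters' processing notes, mm10, STAR 2.5.0a, Picard, HTSeq 0.6.0 and DESeq2 were used, with no role, setting or strand option given. Read length and annotation release are not given in the sources used here. The rows that name no gene held 78.5% to 81.7% of tallied reads, of which reads without a unique place made up 35.1% to 44.8% of the tally, and stayed out of library sizes and tests. Gene counts totalled 4472800 to 7888631 per library. Raw counts of 7 mitochondrial DNA genes differed by at most 1.04-fold over the libraries, so their CPM follows the library total.

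Symbols, merged exon lengths, overlaps and 50-base words came from GENCODE M21 on GRCm38, to which 37607 of the 38924 genes matched with a symbol. Of the 71 genes, 18 shared over 10% of their words with other genes and 23 overlapped a gene on the other strand, where counts are less certain. Counts were fitted with edgeR 4.0.16 in R 4.3.3 (filterByExpr, TMM scaling, quasi-likelihood, all 12 libraries, 1 coefficient per type; 14170 genes), with 8 tests (6 pairs, endoderm against the mean of the mesoderm types, and any difference). Tests were two-sided, with Benjamini-Hochberg adjustment over all genes and a threshold of 0.05. Alternatives were RLE scaling, library totals only, no filter on expression, a least mean of 5 CPM, a replicate block, DESeq2 1.42.0, limma 3.58.1 voom with quality weights, only the 2 types fitted, and each library left out. The fitting code was tested on simulated data. The genes and lists were chosen with earlier results of these data known. Named with values are genes past the threshold, restricted isoforms, the Sdh genes, core subunits, the highest and lowest genes per length in each complex, the 2 largest changes each way in each pair, and the 2 most scattered genes in each type. Other genes named for evenness, non-overlap or single low libraries were chosen after their values were seen. The values of 1 gene are not reported here.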

Additional observations from a re-analysis of the deposited data

How the results depend on the processing

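The count of 0 respiratory chain genes past the threshold held in all 8 tests under RLE scaling, library totals only, no filter on expression, a least mean of 5 CPM, limma and the replicate block, and in the 6 pairs with only the 2 types fitted. DESeq2 called 1 gene for YFP- cardiac mesoderm against hematopoietic mesoderm and 1 for endoderm against hematopoietic mesoderm, Ndufb11 in both. With 1 library left out, counts ranged from 0 to 2 for endoderm against hematopoietic mesoderm, from 0 to 1 for each cardiac mesoderm type against it and for any difference among types, and stayed at 0 in the other 4 tests. The calls were Uqcrc2 and Ndufa7 without hematopoietic mesoderm replicate 2 and Cox4i2 (adjusted p = 0.0467, edgeR, any difference) without YFP- cardiac mesoderm replicate 1. The share of all genes called is not given for these alternatives, so their counts cannot be set against it.

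Direction was followed for the 2 largest changes each way in each pair. Among these only Cox6b2 and Ndufa4l2 changed direction, and the cause was not tested. The direction of other named genes was not followed gene by gene. For endoderm against hematopoietic mesoderm, 23 of the 61 genes had a log2 fold change above 0 after TMM scaling and 32 with library totals only. For Cox6b2, endoderm against hematopoietic mesoderm gave 1.94 with limma and from -3.49 to 7.06 with 1 library left out, YFP- cardiac mesoderm 2.03 and from -2.47 to 8.12, and YFP+ cardiac mesoderm 1.34 and from -3.84 to 7.84, each highest value being that without hematopoietic mesoderm replicate 1. Under the replicate block Cox6b2 was -0.18 for YFP- cardiac mesoderm against endoderm and 0.11 for YFP+ cardiac mesoderm against hematopoietic mesoderm. Under the same block Ndufa4l2 was 0.67 for endoderm against hematopoietic mesoderm and -0.46 for YFP+ cardiac mesoderm against endoderm. With 1 library left out it ranged from -3.09 to 4.16 for the former (highest without hematopoietic mesoderm replicate 2) and from -1.66 to 3.07 for the latter (lowest without YFP+ replicate 2). The names of the deposited files carry a date that same-numbered libraries of the 4 types share, and what it marks is not stated. Deviations of same-numbered libraries from their type means correlated between -0.018 and 0.032, and those of different-numbered libraries between -0.038 and 0.017. Whether the numbers pair libraries was not tested. With the block the count stayed at 0 in all 8 tests. Depth limits low genes to 0.380 to 0.671 CPM per library (3 counts), and for 7 mitochondrial DNA genes nearly constant raw counts limit what CPM can show. The part of counts per base in the levels of other abundant genes was not tested.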
